A study of Mus musculus with 6 samples.

Results

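The 10 genes described here encode enzymes and 1 helper protein that turn arachidonic acid, a fatty acid of cell membranes, into prostaglandins, thromboxane, leukotrienes and hydroxy fatty acids, together called eicosanoids. They were taken by symbol from a deposited table of 56496 genes, and all 10 were found. By the cells they are best known in, they were placed in 3 classes: 3 platelet-type genes (Ptgs1, Tbxas1 and Alox12), 5 leukocyte-type genes (Alox5, Alox5ap, Alox15, Ltc4s and Hpgds) and 2 inducible genes (Ptgs2 and Ptges). RNA-seq had been made from bone marrow cells of female BALB/c mice after surgical removal of tumours of 4T1, a line of mouse mammary carcinoma cells. The Onway group was 3 libraries (Onway 1, 2 and 3) from mice dosed with Onway by gavage over the following 2 weeks, and it carries the label day 14. The Control group was 3 libraries (Control 4, 5 and 6) from mice that did not get it, labelled day 0, so Onway and day, as labelled, cannot be told apart. The labels give WT for the cells of both groups, give no age and name no vehicle. The sources used here do not say what Onway contains. Dexamethasone, isobutylmethylxanthine and insulin appear in the labels' extraction text, in a cell culture absent from the design text, and it is unclear whether that text applies to these libraries. Nothing in the labels says that each library came from its own mouse, so the p-values describe the spread among these libraries, which may be technical.

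Phospholipases free arachidonic acid, and the cyclooxygenases Ptgs1 and Ptgs2 convert it to the precursor that all prostaglandins and thromboxane share. Terminal enzymes then set the product: Tbxas1 makes thromboxane, Ptges makes prostaglandin E and Hpgds makes prostaglandin D. Lipoxygenases act on the same fatty acid, and Alox5, helped by the membrane protein Alox5ap, starts the leukotrienes, of which Ltc4s makes the glutathione-carrying branch. In marrow and blood, Ptgs1, Tbxas1 and Alox12 are known for megakaryocytes and platelets, Alox5 and Alox5ap for neutrophils and other myeloid cells, mouse Alox15 for eosinophils and resident macrophages, and Hpgds and Ltc4s for mast cells, basophils and eosinophils. Ptgs2 and Ptges are known as genes that inflammatory stimuli switch on.

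Levels are in TPM, a measure per transcript length that adds up to a fixed total in each library, taken from the authors' deposited table and summed to genes, so different genes can be set side by side. TPM holds no read depth, so the depth behind each value is unknown. Haemoglobin genes took 13.3%, 9.38% and 33.9% of the TPM in Onway 1, 2 and 3 and 26.6%, 11.6% and 18.3% in Control 4, 5 and 6. The TPM of 21 megakaryocyte and platelet genes summed to 380 to 592 in Onway and 2672 to 3068 in Control, and that of 12 skeletal muscle genes to 17.45 to 25.5 in Onway and 747 to 4827 in Control. The sum of 20 immediate early genes, which cells switch on within minutes of a stimulus, was 1125 to 2893 TPM in Onway and 333 to 472 TPM in Control. The authors' deposited table also gives group means, each of which is a mean of 4 values, so a further value per group entered them beside the 3 listed libraries. What 4 times a mean leaves beyond those libraries is given below as that further value, and it entered no test. In these bulk libraries fewer cells of a type and less RNA per cell cannot be told apart.

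Alox5ap was the most abundant of the 10 genes in each group, at 684 ± 231 TPM in Onway and 573 ± 227 TPM in Control (SD, n = 3 each). In Onway it was followed by Alox5 and Alox15, at 113 ± 30.6 and 111 ± 40.3 TPM, whose libraries overlapped. Ptgs1 (28.3 ± 10.2 TPM) and Tbxas1 (13.6 ± 2.60 TPM) came next in Onway, and the other 5 genes averaged 0.920 to 5.12 TPM, each overlapping its neighbour in that order. In Control the order below Alox5 (92.4 ± 23.2 TPM) was Alox12 at 68.1 ± 11.9 TPM, then Alox15 at 49.8 ± 4.06, Ptgs1 at 45.6 ± 1.71 and Tbxas1 at 39.2 ± 4.52 TPM. Alox5 overlapped Alox12 there, and Alox15 overlapped Ptgs1, while the libraries of Alox12 and Alox15, and those of Ptgs1 and Tbxas1, did not overlap. The remaining 4 genes averaged 0.0967 to 3.44 TPM in Control. Alox12 thus ranked 7 of 10 in Onway and 3 of 10 in Control.

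Each gene was tested for a difference between the groups with limma on log2(TPM + 1), in a single fit of the 14192 genes that averaged 1 TPM or more. The p-values were adjusted after Benjamini and Hochberg over all of them, and the threshold was 0.05. All 10 genes passed this filter, Ptgs2 through its Onway libraries and Ltc4s through its Control libraries. Of the 10, Alox12, Tbxas1 and Ltc4s were lower in Onway, and none was higher. Over all tested genes, 2.99% were called lower and 0.233% higher, 3.22% together. By unadjusted p under 0.05, 7 of the 10 genes differed, 5 lower and 2 higher in Onway, where 13.4% of all tested genes did (8.42% lower and 4.95% higher). The groups did not overlap for 5 genes that were lower in Onway and for 2 that were higher, where 11.5% and 6.95% of all tested genes showed no overlap in these directions. The median log2 fold change of the 10 genes was −0.42, against 0.03 over all tested genes.

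**Figure D1:**
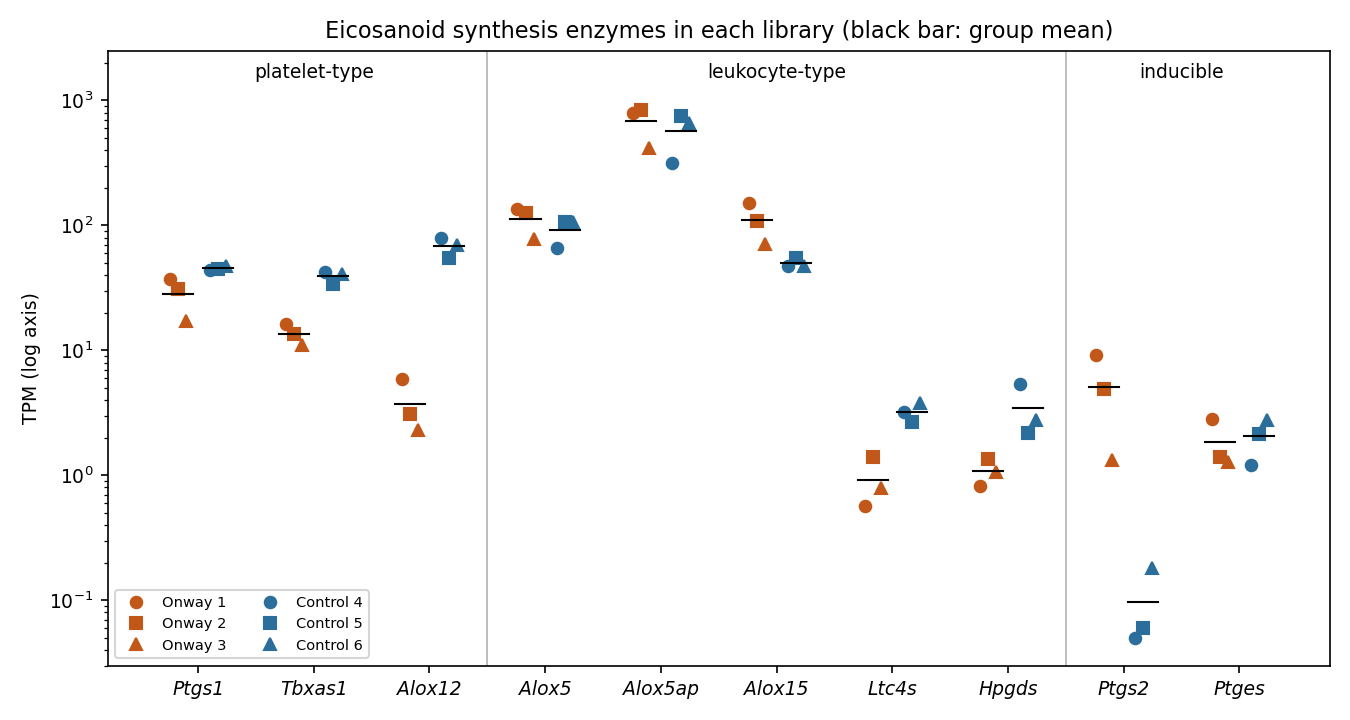
TPM of the 10 eicosanoid synthesis enzymes (log axis) in each library, with Onway in orange left of Control in blue. Black bars are group means. The 3 Alox12 values of Onway lie between 2.31 and 5.87 TPM, all below the Control values of 55.4 to 78.8 TPM, while the Alox5, Alox5ap and Ptges values of the groups overlap.

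**Figure D2:**
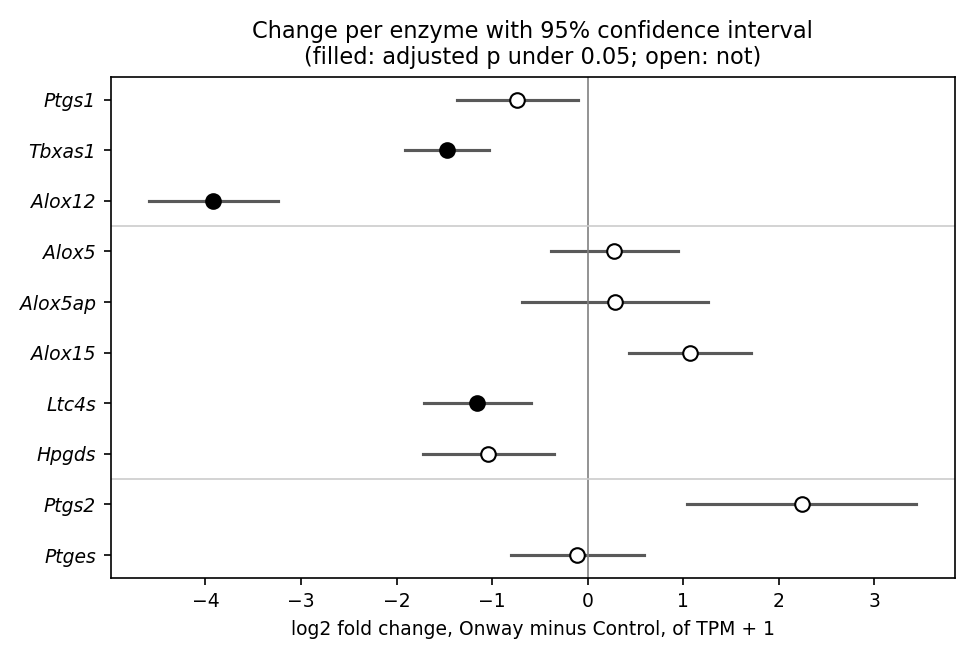
Log2 fold change of TPM + 1, Onway minus Control, for each enzyme, with its 95% confidence interval, which is not adjusted for the number of genes. Filled points are past an adjusted p of 0.05. Alox12, Tbxas1 and Ltc4s are filled and lie left of 0, with Alox12 farthest at −3.92.

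Of the 3 platelet-type genes, Alox12 and Tbxas1 were lower in Onway and Ptgs1 did not pass the threshold. Alox12, the platelet 12-lipoxygenase (chromosome 11, 70241457 to 70255353, GRCm38, minus strand), was at 5.87, 3.07 and 2.31 TPM in Onway 1, 2 and 3 and at 78.8, 55.4 and 70.0 TPM in Control 4, 5 and 6. Every Onway library was far below every Control library. The mean was 18.2-fold higher in Control, and the log2 fold change was −3.92 (SE 0.29, limma adjusted p = 0.00067). The call held under every alternative setting tried, with adjusted p-values of 0.00020 to 0.015. Tbxas1, thromboxane synthase (chromosome 6, 38875404 to 39084585, plus strand), was at 16.2, 13.5 and 11.0 TPM in Onway and 42.4, 34.0 and 41.1 TPM in Control. The groups did not overlap, the mean was 2.89-fold higher in Control, and Tbxas1 fell by 1.47 on the log2 scale (SE 0.19, limma adjusted p = 0.0059). This call, too, held under every alternative setting tried, with adjusted p-values of 0.0044 to 0.038.

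Ptgs1, the constitutive cyclooxygenase (chromosome 2, 36230426 to 36252272, plus strand), was at 37.0, 30.7 and 17.1 TPM in Onway and 44.3, 44.9 and 47.5 TPM in Control. All Onway values were below all Control values, but the Onway libraries were spread widely and Onway 1 was closest to Control. The log2 fold change was −0.74 (95% confidence interval −1.37 to −0.10), which did not pass the threshold (limma adjusted p = 0.29). Ptgs1 thus had 6.31, 10.0 and 7.41 times the TPM of Alox12 in Onway 1, 2 and 3, against 0.563, 0.810 and 0.679 times in Control 4, 5 and 6. It had 2.28, 2.28 and 1.55 times the TPM of Tbxas1 in Onway and 1.05, 1.32 and 1.16 times in Control. Whether the changes of these 3 genes differ from each other was not tested.

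Markers of megakaryocytes and platelets were lower in the same libraries. In that list 18 of 21 genes were called lower and none higher, with a median log2 fold change of −3.13, and 2 of the 21 passed the filter only through Control. Pf4, the platelet chemokine, was at 52.9 ± 6.21 TPM in Onway and 801 ± 34.1 TPM in Control (limma adjusted p = 0.00040). Itga2b, the platelet integrin chain, was at 19.3 ± 3.79 TPM in Onway and 116 ± 13.3 TPM in Control (limma adjusted p = 0.00077). Gp9, a subunit of the von Willebrand factor receptor, was at 7.14 ± 2.79 TPM in Onway and 90.1 ± 4.71 TPM in Control (limma adjusted p = 0.00059). None of the 21 markers was at 0 in all libraries. Tbxas1 and Ptgs1 are also carried by macrophages. Of 15 monocyte and macrophage genes 14 were tested and 1 was called lower, and the summed TPM of the list was 504 to 966 in Onway and 738 to 923 in Control. Among the 14 tested, 9 had a negative and 5 a positive log2 fold change. The complement gene C1qa was at 32.2 ± 7.35 TPM in Onway and 67.9 ± 17.2 TPM in Control (limma adjusted p = 0.088, and 0.032 without Control 5). Csf1r, another gene of this list, went the other way, at 58.2 ± 24.8 TPM in Onway and 37.6 ± 6.10 TPM in Control (limma adjusted p = 0.59). The part of these markers in the result was not tested.

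The promoters of the platelet-type genes and of Ptgs2 are given because the log2 fold changes of both cyclooxygenases, Ptgs1 and Ptgs2, had opposite signs and because Alox12 and Tbxas1 both fell. Each is the RefSeq window (GRCm38.p6) of 250 bases before and 50 bases after the gene's start, read 5′ to 3′ on the gene's strand. Windows were found for 8 of the 10 genes. Capitals mark matches, on either strand, to the GATA letters AGATAA, the ETS letters CGGAAG or CAGGAA, the RUNX letters TGTGGT, the TATA box letters TATAA, the core of a cAMP response element TGACG, the E-box CACGTG, the AP-1 letters TGANTCA, the C/EBP letters TTNNGCAA and an NF-kB consensus.
Ptgs2, chr1:150099781-150100080, plus strand: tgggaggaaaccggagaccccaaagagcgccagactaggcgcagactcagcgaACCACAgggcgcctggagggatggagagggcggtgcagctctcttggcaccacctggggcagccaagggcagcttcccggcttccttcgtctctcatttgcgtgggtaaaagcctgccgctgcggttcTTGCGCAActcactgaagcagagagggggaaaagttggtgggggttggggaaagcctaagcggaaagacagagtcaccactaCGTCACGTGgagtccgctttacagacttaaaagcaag
Ptgs1, chr2:36230176-36230475, plus strand: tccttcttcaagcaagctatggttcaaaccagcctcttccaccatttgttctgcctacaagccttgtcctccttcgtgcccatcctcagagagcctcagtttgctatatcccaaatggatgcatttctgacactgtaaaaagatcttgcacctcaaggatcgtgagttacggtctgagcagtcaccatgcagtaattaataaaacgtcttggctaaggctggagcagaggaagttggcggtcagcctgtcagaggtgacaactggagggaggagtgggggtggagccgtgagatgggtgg
Alox12, chr11:70255321-70255620, minus strand: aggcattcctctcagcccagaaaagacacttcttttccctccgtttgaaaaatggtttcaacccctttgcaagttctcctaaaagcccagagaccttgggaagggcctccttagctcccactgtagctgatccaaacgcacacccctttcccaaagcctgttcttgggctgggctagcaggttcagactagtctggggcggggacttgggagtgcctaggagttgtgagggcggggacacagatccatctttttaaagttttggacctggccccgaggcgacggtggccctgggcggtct
Tbxas1, chr6:38918736-38919035, plus strand: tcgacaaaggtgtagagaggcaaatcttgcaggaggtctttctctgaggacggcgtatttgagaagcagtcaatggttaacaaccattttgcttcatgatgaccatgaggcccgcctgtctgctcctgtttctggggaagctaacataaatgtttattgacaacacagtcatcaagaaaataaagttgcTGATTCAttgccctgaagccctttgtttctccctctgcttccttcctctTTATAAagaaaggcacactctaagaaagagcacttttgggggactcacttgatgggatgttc
The Ptgs2 window held the C/EBP letters on both strands at bases 182 to 189, the cAMP response element core on the minus strand at bases 264 to 268 and an E-box at bases 267 to 272, the last pair sharing 2 bases. It also held the RUNX letters on the minus strand at bases 54 to 59. The windows of Ptgs1 and Alox12 held none of the motifs, and that of Tbxas1 held AP-1 letters at bases 190 to 196 and TATA letters on both strands at bases 239 to 244. Among 32851 windows of this length, 10.8% held the C/EBP letters, 20.8% the cAMP response element core, 7.15% the E-box, 16.8% the RUNX letters, 7.81% AP-1 and 24.9% TATAA. GATA letters were in 11.2% of windows, CGGAAG in 16.9%, CAGGAA in 30.6% and the NF-kB consensus in 4.79%. The leading transcript of Ptgs1 and of Ptgs2 starts at the window's start site in GENCODE M21, that of Tbxas1, whose window lies inside the annotated gene, 6 bases before it and that of Alox12 17 bases after it. A match describes letters, not binding.

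Of the 5 leukocyte-type genes 1 was lower past the threshold and none higher, while 3 had a positive and 2 a negative log2 fold change. Alox5, the enzyme that starts leukotriene synthesis (chromosome 6, 116410077 to 116461178, minus strand), was at 136, 125 and 78.1 TPM in Onway and 65.7, 106 and 106 TPM in Control. The groups overlapped, and the log2 fold change was 0.28 (95% confidence interval −0.38 to 0.94, limma adjusted p = 0.74). Alox5ap, its activating protein (chromosome 5, 149264767 to 149288153, plus strand), was at 798, 835 and 418 TPM in Onway and 315, 745 and 658 TPM in Control, again with overlap. Its log2 fold change was 0.28 (95% confidence interval −0.69 to 1.25, limma adjusted p = 0.82), and without Control 4 it was −0.10. For both genes the lowest library of each group was the library with the highest haemoglobin share, Onway 3 and Control 4. Summed TPM of 14 neutrophil genes was lowest in the same libraries, at 188640, 193110 and 108270 in Onway 1, 2 and 3 and 98882, 214210 and 177090 in Control 4, 5 and 6. The ratio of Alox5ap to Alox5 was close in the groups, at 5.98 ± 0.677 in Onway and 6.02 ± 1.13 in Control.

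Alox15 was higher in every Onway library than in any Control library, but not past the threshold over all genes. Mouse Alox15, the leukocyte-type 12/15-lipoxygenase (chromosome 11, 70344152 to 70352031, minus strand), was at 152, 109 and 71.1 TPM in Onway and 47.3, 54.5 and 47.5 TPM in Control. The Onway values were spread more widely than the Control values. The mean was 2.22-fold higher in Onway, and the log2 fold change was 1.07 (SE 0.27, 95% confidence interval 0.44 to 1.71), which did not pass (limma adjusted p = 0.10). It passed when TPM was rescaled without haemoglobin genes (1.09, adjusted p = 0.037) and without Onway 3 (1.36, adjusted p = 0.028). Rescaled in this way, Alox15 was at 134 ± 35.8 TPM in Onway and 61.4 ± 3.16 TPM in Control. Of 9 eosinophil markers none was called, 8 overlapped between the groups, and 1 was higher in every Onway library than in any Control library. The 9 genes summed to 11839, 11466 and 5472 TPM in Onway and 5758, 11401 and 8210 TPM in Control, sums in which Prg2 is the most abundant gene. The marker without overlap was Il5ra, the interleukin 5 receptor chain, at 3.17, 2.86 and 1.93 TPM in Onway and 1.75, 1.79 and 1.36 TPM in Control (limma adjusted p = 0.42). Ear2, an eosinophil ribonuclease, was at 2925, 2760 and 1362 TPM in Onway and 1397, 1105 and 794 TPM in Control, 2.14-fold higher in Onway by its mean (limma adjusted p = 0.23). The mean of Epx, the eosinophil peroxidase, was 310 ± 154 TPM in Onway and 326 ± 101 TPM in Control. That of Prg2 was 5127 ± 1863 TPM in Onway and 5005 ± 1932 TPM in Control. Of the 9 markers, 5 had a positive and 4, Epx among them, a negative log2 fold change. Both Il5ra and Ear2 were named after their values were seen. Of 15 monocyte and macrophage genes, 7 were lower in every Onway library than in any Control library, none was higher in this way, and 8 overlapped. The part of either list in the result was not tested.

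Ltc4s and Hpgds were of low abundance, and for both all Onway values lay below all Control values. Ltc4s, leukotriene C4 synthase (chromosome 11, 50236461 to 50238616, minus strand), was at 0.57, 1.40 and 0.79 TPM in Onway and 3.19, 2.69 and 3.82 TPM in Control. Ltc4s fell by 1.16 on the log2 scale (SE 0.24, limma adjusted p = 0.048). The call was close to the threshold, and it was lost without any 1 of the 6 libraries (adjusted p = 0.056 to 0.18). Hpgds, haematopoietic prostaglandin D synthase (chromosome 6, 65117293 to 65144908, minus strand), was at 0.82, 1.36 and 1.06 TPM in Onway and 5.35, 2.20 and 2.77 TPM in Control. Its log2 fold change was −1.04 (95% confidence interval −1.72 to −0.36), and it did not pass (limma adjusted p = 0.15). Of 10 mast cell and basophil markers 9 overlapped between the groups, and none of the 8 tested was called. Their sums were 353 to 821 TPM in Onway and 220 to 833 TPM in Control. Cpa3 was at 25.4 ± 15.1 TPM in Onway and 27.3 ± 18.2 TPM in Control (limma adjusted p = 0.99). Mcpt8 was at 149 ± 113 TPM in Onway and 166 ± 125 TPM in Control (limma adjusted p = 0.98). The marker without overlap was Tpsb2, a mast cell tryptase, which was not tested, at 0.39, 0.28 and 0.21 TPM in Onway and 0.13, 0.12 and 0.09 TPM in Control. In humans both enzymes are also known from the megakaryocyte lineage, whose markers were lower in these Onway libraries, as given above. Their part in the result was not tested.

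Neither inducible gene passed the threshold, and only Ptgs2 had groups that did not overlap. Ptgs2, the inducible cyclooxygenase (chromosome 1, 150100031 to 150108227, plus strand), was at 9.13, 4.91 and 1.32 TPM in Onway and 0.05, 0.06 and 0.18 TPM in Control. It was close to 0 in each Control library, and highest in Onway 1. The ratio of means was 53.0, and the log2 fold change of TPM + 1, which understates a change from so low a level, was 2.24 (SE 0.51, limma adjusted p = 0.077). It passed with a pseudocount of 0.1 TPM (4.42, adjusted p = 0.021) or 0.5 TPM (2.94, adjusted p = 0.040), when rescaled without haemoglobin genes (2.44, adjusted p = 0.045) and without Onway 3 (2.82, adjusted p = 0.013). The summed immediate early genes were highest in Onway 1 and lowest in Onway 3, at 2893, 2128 and 1125 TPM in Onway 1, 2 and 3 against 333, 342 and 472 TPM in Control 4, 5 and 6. This order within Onway was not particular to them and Ptgs2, since Ptgs1, Tbxas1, Alox12, Alox5, Alox15 and Ptges had it too. Of 17 immediate early genes tested, 6 were called higher and none lower, and their part in the result was not tested. Fos, an AP-1 subunit, was at 715, 446 and 206 TPM in Onway 1, 2 and 3 and 10.2, 8.81 and 25.4 TPM in Control 4, 5 and 6 (log2 fold change 4.83, limma adjusted p = 0.0089), with further values, as defined above, of 74.1 TPM in Onway and 257 TPM in Control. Egr1, another immediate early factor, was at 55.9 ± 42.8 TPM in Onway and 2.95 ± 1.40 TPM in Control (limma adjusted p = 0.066, and 0.011 without Onway 3). Ptges, the prostaglandin E synthase usually induced with Ptgs2 (chromosome 2, 30889471 to 30929863, minus strand), was at 2.85, 1.40 and 1.29 TPM in Onway and 1.22, 2.16 and 2.77 TPM in Control. Its groups overlapped, and the log2 fold change was −0.11 (95% confidence interval −0.81 to 0.59, limma adjusted p = 0.93).

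Within a library, platelet-type enzymes held a smaller share of the 10 enzymes' TPM in every Onway library than in any Control library. The platelet-type genes summed to 59.1, 47.3 and 30.5 TPM in Onway and 166, 134 and 159 TPM in Control, the leukocyte-type genes to 1086, 1072 and 569 TPM in Onway and 437, 910 and 818 TPM in Control. The inducible genes summed to 11.98, 6.31 and 2.61 TPM in Onway and 1.27, 2.22 and 2.95 TPM in Control. Platelet-type genes therefore held 5.11%, 4.20% and 5.06% of the TPM of the 10 genes in Onway 1, 2 and 3, against 27.4%, 12.8% and 16.2% in Control 4, 5 and 6. With Alox5ap, the most abundant gene, left out, their share was 16.4% ± 0.126 in Onway and 50.4% ± 6.53 in Control. Alox15 had 25.8, 35.5 and 30.8 times the TPM of Alox12 in Onway, and 0.601, 0.984 and 0.679 times in Control. Ptgs1 had 4.05, 6.26 and 12.97 times the TPM of Ptgs2 in Onway, and 887, 748 and 264 times in Control. The Control ratios divide by Ptgs2 values of only 0.05, 0.06 and 0.18 TPM, of unknown depth, so their size is uncertain.

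The difference between 2 enzymes on the log2(TPM + 1) scale was compared between the groups for 4 pairs. Onway minus Control, it was −2.98 for Ptgs1 minus Ptgs2, −4.20 for Alox12 minus Alox5, −4.99 for Alox12 minus Alox15 and −1.36 for Tbxas1 minus Ptges. For Alox12 minus Alox15 the mean difference within a library was −4.56 ± 0.172 in Onway and 0.43 ± 0.365 in Control. In each of the 4 pairs no Onway library overlapped a Control library. For Ptgs1 minus Ptgs2 and Alox12 minus Alox15 this had to follow, since each gene already separated the groups, in opposite directions. The pairs thus restate the values of their members, and pairs of other genes were not compared. Each exact two-sided permutation p was 0.1, the smallest that 3 libraries against 3 can give, and 0.1 after adjustment over the 4 pairs, so none could pass 0.05.

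**Figure D3:**
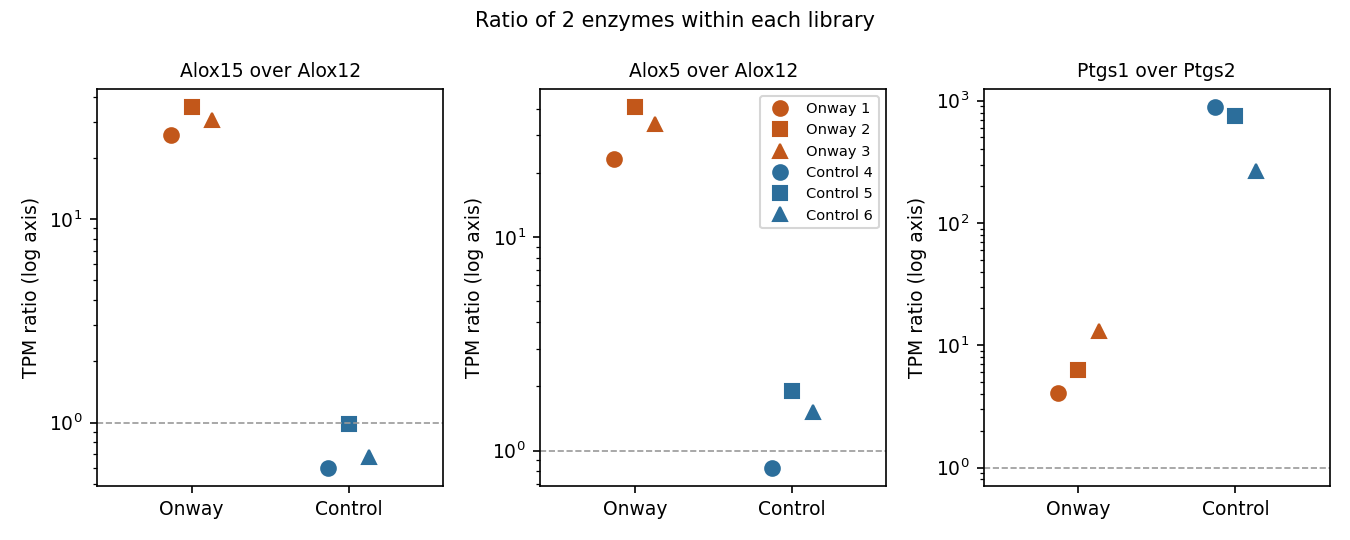
Ratio of the TPM of 2 enzymes within each library (log axes), Onway left of Control; the dashed line marks equal TPM. Alox15 is 25.8 to 35.5 times Alox12 in Onway and 0.601 to 0.984 times in Control. Ptgs1 exceeds Ptgs2 in all 6 libraries, by 4.05 to 12.97 times in Onway and 264 to 887 times in Control. Ptgs2 was at only 0.05 to 0.18 TPM in Control, so the size of the ratios there is uncertain.

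Alox12 and Alox15 lie 88.8 kb apart (GRCm38) on chromosome 11, with 1 annotated gene, Alox12e, between them. Alox12e, an epidermal lipoxygenase, was at 2.69, 1.93 and 1.42 TPM in Onway and 0.92, 0.95 and 0.94 TPM in Control. Its Onway libraries were all above its Control libraries, as those of Alox15 were, and it passed the filter on low values only through Onway, but it did not pass the test (log2 fold change 0.62, limma adjusted p = 0.30).

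The further values in the authors' means did not show the platelet-type difference. For Alox12 the authors' deposited means were 11.0 TPM in Onway and 58.7 TPM in Control, which leaves further values of 32.7 TPM in Onway and 30.7 TPM in Control. Both lie between the Onway and the Control libraries. For Tbxas1 the further values were 23.0 TPM in Onway and 22.5 TPM in Control, and for Ptgs1 35.2 TPM in Onway and 35.6 TPM in Control. For Ltc4s they were 2.47 TPM in Onway and 1.24 TPM in Control, and for Hpgds 2.52 TPM in Onway and 1.59 TPM in Control, higher in Onway in each case. The further value of Alox15 kept the direction of the libraries, at 72.2 TPM in Onway and 37.4 TPM in Control. That of Ptgs2 ran the other way, at 0.41 TPM in Onway and 6.89 TPM in Control. Alox5 had further values of 92.4 TPM in Onway and 83.9 TPM in Control. Those of Alox5ap were 623 TPM in Onway and 362 TPM in Control, and those of Ptges 1.53 TPM in Onway and 2.36 TPM in Control. The megakaryocyte and platelet list left 1696 TPM in Onway and 1489 TPM in Control, and the immediate early list 620 TPM in Onway and 1323 TPM in Control. The skeletal muscle list left 21.2 TPM in Onway and 22.5 TPM in Control.

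**Figure D4:**
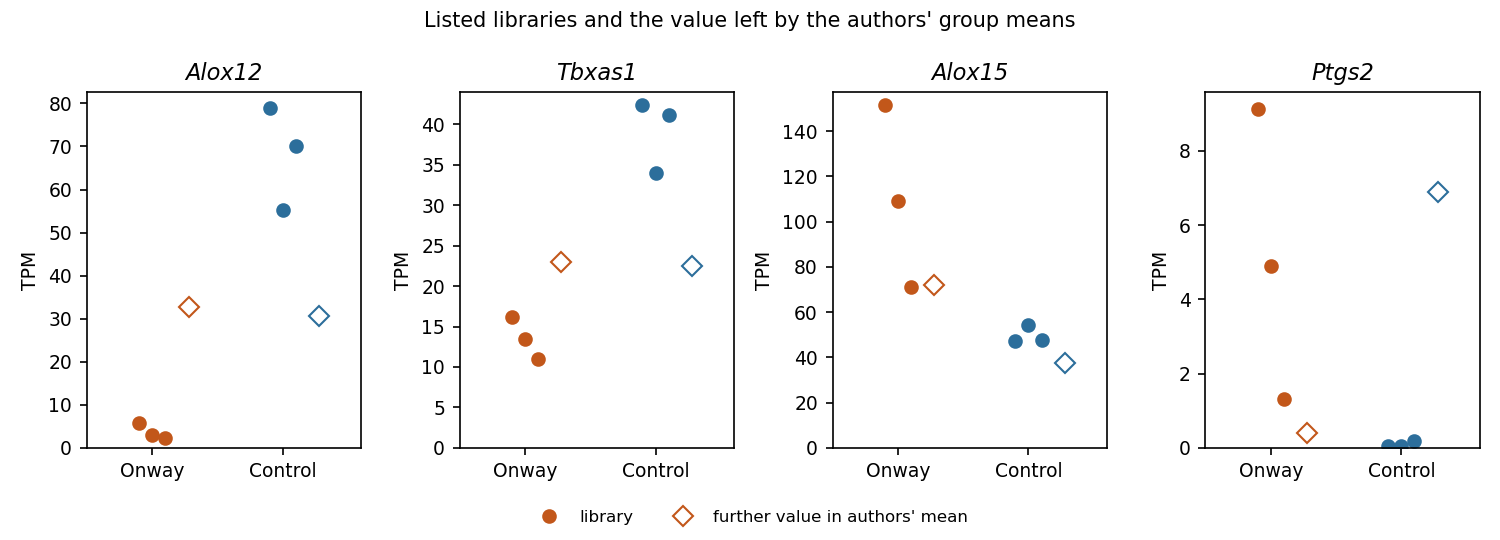
TPM of 4 enzymes in the 3 listed libraries of each group (filled circles) and the further value left by the authors' mean (open diamonds), Onway left of Control. For Alox12 and Tbxas1 the diamonds of the groups nearly coincide, for Alox15 the Onway diamond (72.2 TPM) is above the Control diamond (37.4 TPM), and for Ptgs2 the Onway diamond (0.41 TPM) is below the Control diamond (6.89 TPM).

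The 10 genes were listed with 3 to 12 transcripts each. The 3 Alox12 transcripts were each lower in all Onway libraries than in any Control library, and the leading coding transcript held 89.5% ± 2.81 of the gene's TPM in Onway and 89.7% ± 1.80 in Control. The leading Alox15 transcript held 97.0% ± 0.966 in Onway and 97.8% ± 0.113 in Control. Ptgs1 was the most mixed of the platelet-type genes, since its only listed protein-coding transcript held 58.9% ± 3.49 in Onway and 53.4% ± 3.58 in Control, the rest lying in retained introns, processed transcripts and newly assembled models. That coding transcript was at 21.7, 17.1 and 10.7 TPM in Onway and 22.8, 25.8 and 24.4 TPM in Control. A newly assembled Ptgs2 transcript of 6742 bases was listed at 1.61, 1.51 and 0.40 TPM in Onway and at 0 in each Control library. The leading annotated transcript has 4453 bases. All Ptgs2 transcripts together held only 0.05 to 0.18 TPM in Control, so the 0 there does not show that the new transcript is absent. For Alox5ap a processed transcript of 504 bases held 13.6% ± 8.04 in Onway and 22.9% ± 2.13 in Control. The sources used here do not say how strand was handled, so reads of opposite-strand neighbours cannot be told apart from those of a gene. Such neighbours overlap 5 of the 10 genes, and Hipk2, which overlaps Tbxas1, was at 8.15 to 14.5 TPM in Onway and 7.53 to 12.1 TPM in Control.

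Around these enzymes, 39 further genes of the pathway were tested of 56 listed, and limma called 4 lower and none higher (7 and 1 by unadjusted p under 0.05). The shares over all tested genes were 2.99% lower and 0.233% higher, and 8.42% and 4.95% by unadjusted p under 0.05. Of 9 tested genes for substrate release none was called and 1 was lower by unadjusted p under 0.05, and the median log2 fold change was −0.13. Pla2g4a, the cytosolic phospholipase that frees arachidonic acid, was at 10.9, 12.2 and 6.81 TPM in Onway and 15.2, 16.3 and 15.6 TPM in Control (limma adjusted p = 0.25). The secreted phospholipase Pla2g2d was at 2.42 ± 1.64 TPM in Onway and 4.52 ± 1.02 TPM in Control (limma adjusted p = 0.40). The lysosomal phospholipase Pla2g15 was at 9.56 ± 1.98 TPM in Onway and 11.2 ± 0.565 TPM in Control (limma adjusted p = 0.68).

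Of 13 other enzymes tested 1 was lower, with a median log2 fold change of −0.15. It was Ptgis, prostacyclin synthase, at 0.03, 0 and 0.07 TPM in Onway and 3.87, 4.83 and 3.99 TPM in Control (log2 fold change −2.34, limma adjusted p = 0.0012). Ptgis passed the filter on low values only through its Control libraries. Its further values were 0.06 TPM in Onway and 0 TPM in Control. Ptgis is known for endothelium and stroma, and 9 of 10 endothelial and 13 of 14 bone and stromal markers were called lower too. Of these lists, 4 endothelial and 3 bone and stromal genes passed the filter only through Control. The sums were 35.5 to 40.2 TPM in Onway and 88.3 to 101 TPM in Control for endothelium, and 77.9 to 106 TPM in Onway and 980 to 2066 TPM in Control for bone and stroma. The further values did not show this difference, at 53.6 TPM in Onway and 56.85 TPM in Control for endothelium. For bone and stroma they were 138 TPM in Onway and 157 TPM in Control. The part of these lists in the result was not tested. Dpep1, a dipeptidase that trims leukotrienes, was at 0.477 ± 0.271 TPM in Onway and 2.69 ± 1.03 TPM in Control and also passed the filter only through Control (limma adjusted p = 0.069, and 0.020 without Control 5).

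Of 8 tested genes for breakdown and transport 1 was lower, with a median of −0.05. Hpgd, which inactivates prostaglandins, was at 5.10, 2.60 and 2.78 TPM in Onway and 14.7, 13.6 and 11.7 TPM in Control (log2 fold change −1.71, limma adjusted p = 0.0089). It lost its call without Onway 2 (0.052), and its further values were 5.95 TPM in Onway and 4.79 TPM in Control. Slco3a1, a prostaglandin transporter, was at 7.02 ± 2.10 TPM in Onway and 4.51 ± 0.369 TPM in Control (limma adjusted p = 0.43). Cyp4f18, which degrades leukotriene B4, was at 118 ± 31.4 TPM in Onway and 77.1 ± 26.8 TPM in Control (limma adjusted p = 0.46). Of 9 tested receptors 2 were lower, with a median of −0.33. Among the 9, Ltb4r2 passed the filter on low values only through Control, which favours a negative value. Its log2 fold change was −0.48 (limma adjusted p = 0.38). Cysltr2, a receptor of the glutathione-carrying leukotrienes, was at 1.21, 1.46 and 0.80 TPM in Onway and 12.8, 12.5 and 10.3 TPM in Control (log2 fold change −2.58, limma adjusted p = 0.00077). Tbxa2r, the thromboxane receptor of platelets, was at 0.67, 1.45 and 1.34 TPM in Onway and 5.40, 4.66 and 4.6 TPM in Control (log2 fold change −1.47, limma adjusted p = 0.011). The further values of Cysltr2 were 4.89 TPM in Onway and 4.62 TPM in Control, and those of Tbxa2r 3.07 TPM in Onway and 3.49 TPM in Control. Ptger3, a prostaglandin E receptor, was at 1.09 ± 0.304 TPM in Onway and 2.74 ± 0.485 TPM in Control (limma adjusted p = 0.12). Without both Control 4 and Onway 3, Hpgd and Tbxa2r lost their calls (adjusted p = 0.088 and 0.082).

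**Figure D5:**
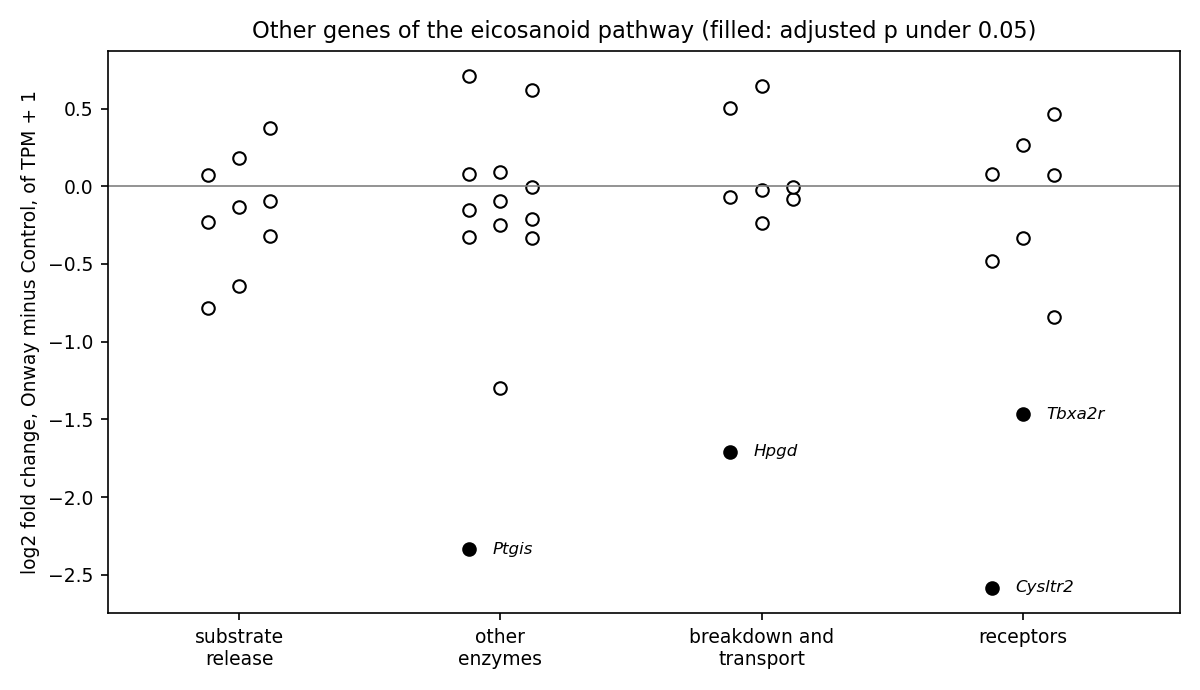
Log2 fold change of TPM + 1, Onway minus Control, of the 39 tested pathway genes outside the 10 enzymes, by list. Filled points are past an adjusted p of 0.05. Ptgis, Hpgd, Cysltr2 and Tbxa2r are the filled points, between −2.58 and −1.47.

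The genes with the most similar profiles were sought by the root mean square difference of log2(TPM + 1), centred per gene, over the 6 libraries. Only tested genes were ranked, and those with predicted or provisional gene names were left out. For Alox12 these were Treml1 (0.090), Myl9 (0.15) and Tubb1 (0.20). Treml1, a receptor of platelet granules, was at 3.82 ± 1.63 TPM in Onway and 68.1 ± 5.79 TPM in Control. For Tbxas1 they were Prkcq (0.093), Tek (0.11) and Palld (0.11), and for Ptgs1 Cass4 (0.073), Dnajc12 (0.11) and Smtn (0.11). Tek, which is in the endothelial list, and Palld passed the filter only through Control. They averaged 0.487 and 0.90 TPM in Onway and 2.75 and 3.66 TPM in Control. For Ptgs2 the distances were larger, with the immediate early genes Ier2 (0.35) and Zfp36 (0.36) and the cytokine gene Osm (0.36) nearest. Ier2 was at 228, 138 and 83.6 TPM in Onway and 34.0, 36.6 and 51.2 TPM in Control.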

How the data were processed

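RNA-seq of mouse bone marrow cells was used from 3 Onway and 3 Control libraries, grouped by their titles. A SMARTer kit for mRNA was used, per the labels' protocols. Per the submitters' processing notes the builds were GRCm38 and mm10, with no aligner or quantifier named. The deposited values of the authors are TPM per transcript (158850 transcripts, 16416 of them newly assembled), with group means of TPM and transcript lengths; the 3 columns that name no group were taken as Onway 1, 2 and 3 by their numbers. TPM keeps no depth, so no counting intervals are given. TPM was summed to 56496 genes. The 14192 genes averaging 1 TPM or more were tested as log2(TPM + 1) with limma 3.58.1 (trend and robust moderation, R 4.3.3), two-sided, with Benjamini-Hochberg adjustment over all tested genes, after the procedure was tested on simulated data. Intervals are 95% confidence intervals of that fit, not adjusted. Pair differences used exact permutation over 20 assignments (SciPy 1.17.1). All deposited means could be means of 4 rounded values, whereas 69692 Onway and 71142 Control means could not be means of 3. Coordinates are from GENCODE M21, which held 97.1% of the Ensembl transcripts. The genes, classes, pathway and marker lists were chosen with earlier results of these data known, and the motifs after the values were seen. Named genes are the 10 enzymes, per pathway list those called and the 3 with the smallest p, the 3 nearest profiles of 4 enzymes, and preset marker genes. The markers Il5ra, Ear2 and Tpsb2 were not preset and were named after their values were seen. Hipk2, Ltb4r2, S100a8 and S100a9 are named for the limits they set. Alternatives were other pseudocounts, filters and scalings, Ensembl transcripts only, limma without trend, and leaving out libraries.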

Additional observations from a re-analysis of the deposited data

Results flagged for a closer look

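The further value of Alox15 left by the authors' Onway mean, 72.2 TPM, is above the highest Control library (54.5 TPM), in data that entered no comparison. The further value of Ptgs2 in the authors' Onway mean, 0.41 TPM, is above the highest Control library (0.18 TPM). It is also below every Onway library, the lowest being Onway 3 (1.32 TPM), and below the further value in Control. The further value of Ptgs2 in the authors' Control mean, 6.89 TPM, is above every Control library and above Onway 2 and Onway 3 (4.91 and 1.32 TPM).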

How the results depend on the processing

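No paired analysis was possible because the Onway libraries are numbered 1 to 3 and the Control libraries 4 to 6, so no number is shared. Alox12 and Tbxas1 kept their calls under all 15 alternatives, at log2 fold changes of −4.24 to −3.58 and −1.60 to −1.28, and Ptgs1 and Alox5 kept their sign and missed the threshold under all 15. All 36 alternatives of the 4 pair differences kept their sign. Ltc4s, Hpgds, Ptgs2 and Ptges fell under a filter of 5 TPM and have no value there. The Ltc4s call was lost under 11 of 14 alternatives: with pseudocounts of 0.1 (−1.78) and 0.5 (−1.43), with no filter (−1.16), rescaled without haemoglobin genes (−1.24), without any 1 library (−1.33 to −1.02) and without both Control 4 and Onway 3 (−1.12). Ptgs2 passed with pseudocounts of 0.1 (4.42) and 0.5 (2.94), rescaled (2.44), without Onway 3 (2.82) and without both libraries (2.79), and ranged from 1.76 to 2.82 over the libraries left out in turn. Alox15 passed rescaled (1.09), without Onway 3 (1.36) and without both libraries (1.32), with a range of 0.81 to 1.36. Alox5ap ranged from −0.10 without Control 4 to 0.60 without Onway 3. Ptges turned positive with quantile normalization (0.027), without Onway 3 (0.029) and without Control 6 (0.063), within −0.35 to 0.063. Of the 10 enzymes none was called higher, against 1 at each smaller pseudocount, 2 rescaled, 2 without both libraries and 0 to 2 over the libraries left out in turn. The 4 other pathway genes called lower were 2 with the filter of 5 TPM and 2 without both libraries. Over all genes, 424 were called lower and 33 higher, against 183 and 20 with the filter of 5 TPM, 418 and 56 with quantile normalization, and 213 and 98 without both libraries. Over the libraries left out in turn they were 249 to 481 and 17 to 87, where leaving out Onway 1 gave 285 lower and 72 higher (20.2% of the calls), Onway 2 gave 249 lower and 17 higher, Onway 3 gave 254 lower and 72 higher (22.1%), and Control 4 gave 334 lower and 87 higher (20.7%). The higher calls were 7.22% of all calls, and 31.5% without both libraries, where the median log2 fold change of all genes was 0.14. The cause of these changes was not tested. Depth is unknown, so genes near 1 TPM, Ltc4s, Hpgds and Ptges among them, have an unknown counting error. The same holds for Ptgs2, at 0.05 to 0.18 TPM in Control.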

Other observations

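Within Onway, Onway 3 was the lowest library for 8 of the 10 enzymes, and it had the highest haemoglobin share (33.9%). With TPM rescaled without haemoglobin genes it was the lowest for 5. Control 4 was the lowest Control library for 6 of the 10 enzymes as deposited and for 3 after rescaling. After rescaling, Alox12 was at 4.55 ± 1.93 TPM in Onway and 85.2 ± 22.3 TPM in Control, and Ptgs1 at 34.2 ± 8.42 TPM in Onway and 56.4 ± 5.03 TPM in Control, still without overlap between the groups.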
